A study of Mus musculus with 8 samples.

Results

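The complement genes described here are C3, C4b, Cfb, Cfi, Cr1l, Cd55, Cd46 and Cd59a, 8 of the 54532 genes in a count table of mouse intestinal organoids. They were picked by name as components and regulators of the complement system, because the counts of C3 were much higher in the organoids given RANKL. The values that led to the choice are thus the same RANKL and control counts reported below, so the differences of these 8 genes between the groups are given as a description, without a test. The 8 libraries fall into 4 labelled control and 4 labelled as treated with RANKL, the ligand of the TNF receptor family member RANK. Organoids are epithelial structures grown from intestinal crypts in a gel, with no stroma or immune cells added, and the labels give neither a dose nor a duration of RANKL, nor a strain, genotype or age of the donor animals. The study's methods give C57BL/6J as the background of its mice. The general medium described for mouse organoids in this study held EGF, NOGGIN and R-spondin. Others with less EGF or with added WNT3A are also described, and the methods do not say which these libraries had. Nothing says whether the 4 libraries of a group came from separate animals or cultures, so errors and p-values measure the spread between these libraries, which may be technical.

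Complement is a cascade of proteases and binding proteins that marks surfaces for removal and can form a lytic pore in membranes. C3 is the point where its classical, lectin and alternative routes meet. It is split by enzymes called convertases, which are built from C4 and C2 or from C3 itself and factor B. Host cells hold the cascade in check with factor I, a protease that inactivates C3b and C4b, and with membrane proteins that either help factor I, take convertases apart or stop the pore. The liver makes most of the C3 in plasma, but epithelia, the gut lining among them, also make it.

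Of the 8 genes, 5 have a promoter entry in RefSeq (GRCm38.p6), namely C3, Cr1l, Cd55, Cd46 and Cd59a. C4b, Cfb and Cfi have none there. The 120 bases before the start site are shown for C3, the gene with the largest difference, and for Cr1l and Cd55, which also had every RANKL library above every control library. All 3 genes lie on the minus strand and the sequences read 5′ to 3′, with matches to the C/EBP motif TTNNGNAA in capitals. C/EBP proteins are transcription factors of acute-phase genes. The stretches are chr17:57228137-57228256 for C3, chr1:195131571-195131690 for Cr1l and chr1:130462745-130462864 for Cd55. Gene coordinates below are from GENCODE, where Cr1l reaches 195131586. Part of the Cr1l stretch thus lies inside the gene as placed there.
C3: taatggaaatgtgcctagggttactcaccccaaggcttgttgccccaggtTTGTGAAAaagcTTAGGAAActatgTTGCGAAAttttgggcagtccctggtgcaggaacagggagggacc
Cr1l: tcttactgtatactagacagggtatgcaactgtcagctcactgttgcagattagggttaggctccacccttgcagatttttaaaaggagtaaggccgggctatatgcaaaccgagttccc
Cd55: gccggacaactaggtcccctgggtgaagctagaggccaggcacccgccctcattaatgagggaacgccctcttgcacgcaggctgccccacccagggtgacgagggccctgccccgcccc

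The 300 bases from 250 before to 50 after each start were searched on both strands for this motif, for the STAT motif TTCNNNGAA, and for the IRF and NF-κB consensus motifs, the latter 2 by name alone. C3 held the C/EBP motif at 3 places, starting 70, 58 and 45 bases before the start, the last of them a match on both strands. Of 32851 mouse promoters of this length, 40.7% held at least 1 such match and 3.60% held 3 or more. Cr1l, Cd55, Cd46 and Cd59a held 0. The NF-κB consensus, found in 8.46% of all promoters, and the STAT motif, found in 8.30%, had 0 matches in the 5 windows. The IRF motif, found in 3.44%, had 1 match in Cd46 and 1 in Cd59a. None of these matches overlapped a match to another of the motifs. A match is a string of letters in a window and not evidence of binding.

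The libraries held between 583663 and 7807298 counts on genes, so that 1 count stood for 0.128 to 1.71 CPM, the usual unit of counts scaled to a common library total. Control libraries were the deeper group, with 16214577 counts against 5763309, but control replicate 4 and RANKL replicate 1 were the shallowest of all. Reads were taken near the 3′ end of each transcript, so counts were compared between genes without division by length. Levels are in CPM with library totals scaled by TMM factors, with each group's mean ± SD over its 4 libraries. Fold changes come from edgeR's quasi-likelihood fit over the 9971 genes that passed its filter on low counts, with their standard error (SE) or 95% interval. The 8 epithelial markers listed, Epcam, Cdh1, Vil1 and keratins among them, summed to 6002 to 6940 CPM in control and 6023 to 6467 CPM in RANKL libraries. Most of that sum was Cdh1, and of the 8 markers Krt18 and Krt19 fell with RANKL (log2 fold change -0.70, adjusted p = 9.4e-07, and -0.30, adjusted p = 0.023, from edgeR's test), while the other 6 did not pass the test. The 8 leukocyte markers summed to 3.44 to 10.2 CPM in control and 4.13 to 9.69 CPM in RANKL libraries, with Ptprc, the pan-leukocyte marker, at 0 counts in control and 1 count in RANKL libraries. Csf1r was the highest of the 8, at a mean of 5.29 CPM in control and 4.95 CPM in RANKL libraries. Cd68 had 43 counts in control and 4 in RANKL libraries, and Lyz2 had 8 and 9. None of these 8 markers passed the filter on low counts. The 8 stromal markers summed to 4.58 to 12.04 CPM in control and 17.9 to 26.1 CPM in RANKL libraries. Without Pdgfrb, which rose with RANKL (log2 fold change 2.53, SE 0.30, adjusted p = 7e-08 from edgeR's test), the other 7 summed to 2.03 to 6.88 CPM in control and 0.688 to 4.84 CPM in RANKL libraries. Pdgfrb passed the filter on low counts through the RANKL libraries, where it was higher. The 5 hepatocyte markers other than Ttr summed to at most 0.805 CPM in control and 0.688 CPM in RANKL libraries, and Ttr did not pass the test (log2 fold change 0.56, SE 0.24, adjusted p = 0.085 from edgeR's test).

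C3, on chromosome 17 from 57203970 to 57228136 (GRCm38), was near the detection limit in control organoids and the most abundant of the 8 transcripts with RANKL. Control replicates 1 to 4 held 22, 3, 4 and 1 counts of C3, which is 2.80, 0.805, 1.01 and 1.72 CPM. RANKL replicates 1 to 4 held 130, 292, 401 and 318 counts, which is 209.9, 201, 209 and 175 CPM. Every RANKL library thus lay far above every control library, and the highest control value came from the deepest library. In bulk RNA, more cells that make a transcript and more transcript per cell cannot be told apart. The group means (SD, n = 4 each) were 1.58 ± 0.90 CPM for control and 199 ± 16.5 CPM for RANKL, and the fitted log2 fold change was 6.72 (SE 0.20, 95% interval 6.31 to 7.14). Among the 9971 genes fitted, this was the 13th largest. C3 passed the filter on low counts for this fit through the RANKL libraries alone. From the summed counts alone, 30 in control and 1141 in RANKL libraries, the ratio was 105 (95% exact interval 73.4 to 157, counting error only). Without control replicate 1, which holds most of the control counts, the log2 fold change was 7.58. Leaving out any other library gave 6.499 to 6.79. The RANKL libraries varied by a coefficient of variation of 8.31%, where counting error alone gives about 6.47%. No exon of C3 overlaps another gene, and none of the 50-base windows at the ends of its transcripts occurs in another gene.

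**Figure D1:**
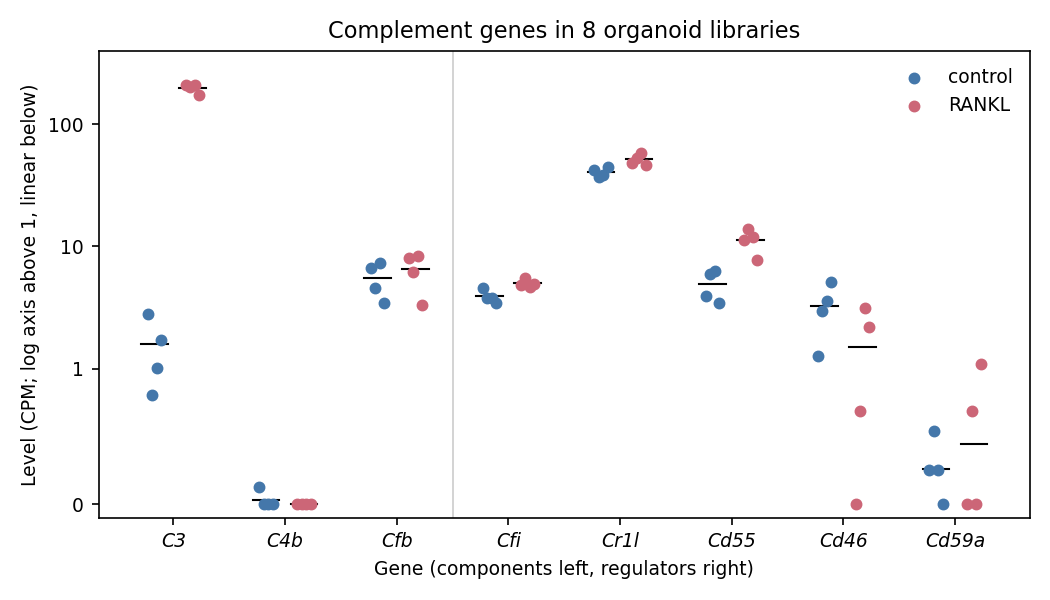
Level of each complement gene in CPM (log axis above 1 CPM, linear below) in the 4 control libraries (blue) and the 4 RANKL libraries (red). Each point is a library and each bar the mean of 4. The RANKL libraries hold C3 at 175 to 209.9 CPM against at most 2.80 CPM in control libraries. Cr1l, Cd55 and Cfi also have every RANKL library above every control library, by smaller gaps. The groups overlap for the other genes.

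Among the other components, Cfb encodes factor B, the protease subunit of the alternative convertase, and lies on chromosome 17 from 34856374 to 34862518. Cfb was at 6.62, 4.56, 7.35 and 3.44 CPM in control replicates 1 to 4, from 100 counts in all. It was at 8.07, 6.19, 8.34 and 3.30 CPM in RANKL replicates 1 to 4, from 36 counts in all. The groups overlapped over nearly their whole range. The fitted log2 fold change was 0.03 (SE 0.33), with a 95% interval of -0.65 to 0.71 that leaves room for a difference in either direction. The counts of Cfb are uncertain, since Gm20547, a read-through transcript of C2 and Cfb on the same strand, covers 79.5% of its exonic bases and 77.6% of the last 500. A read in the shared exons fits both genes, and Gm20547 itself was at 0 counts in the 8 libraries. Since 100% of the exonic bases of Gm20547 overlap C2 or Cfb, these 0 counts cannot show whether the read-through transcript was present. The level of Cfb beside the other genes, in the order and shares below, is uncertain for the same reason. C4b, which encodes the C4 protein of the classical and lectin routes, lies on the same chromosome from 34728380 to 34743882. It had 1 count in control replicate 1 and 0 in the other 7 libraries. The 0 counts over the RANKL group allow up to 0.516 CPM. Its transcript end shares 38.14% of 50-base windows with the paralog C4a, and both genes together had 11 counts in control and 5 in RANKL libraries. How reads that fit both genes were counted is not stated, so this sum may miss some.

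Factor I is encoded by Cfi, on chromosome 3 from 129835884 to 129875332. Cfi was at 4.58, 3.76, 3.80 and 3.44 CPM in control and at 4.84, 5.51, 4.69 and 4.94 CPM in RANKL replicates 1 to 4. The groups did not overlap, but the counts were few, 67 in control and 29 in RANKL libraries. The ratio of the summed counts was 1.20, with a 95% exact interval of 0.748 to 1.88 that holds counting error only and includes 1. Cfi did not pass the filter on low counts, so it has no fitted value.

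The most abundant complement regulator was Cr1l, on chromosome 1 from 195097382 to 195131586. It encodes Crry, the rodent membrane protein that both acts as a cofactor for factor I and takes convertases apart. Cr1l was at 42.1, 37.0, 38.3 and 44.7 CPM in control and at 48.4, 53.0, 57.9 and 46.7 CPM in RANKL replicates 1 to 4. The 4 RANKL values were all above the 4 control values, with a small gap between 44.7 and 46.7 CPM. The means were 40.5 ± 3.53 and 51.5 ± 5.02 CPM (SD, n = 4 each), and the fitted log2 fold change was 0.38 (SE 0.14, 95% interval 0.09 to 0.67). With a library left out in turn it stayed between 0.31 and 0.44. Of the 50-base windows at its transcript ends, 20.04% also occur in the pseudogene Crry-ps or in Gm49375, which held 2 counts or fewer in all. How reads that fit several genes were counted is not stated. These low counts thus cannot show whether such reads were lost from Cr1l.

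Cd55 encodes decay-accelerating factor, a lipid-anchored protein that speeds the breakdown of convertases, and lies on chromosome 1 from 130439027 to 130462744. Cd55 was at 3.95, 5.90, 6.34 and 3.44 CPM in control and at 11.3, 13.8, 11.99 and 7.69 CPM in RANKL replicates 1 to 4. The lowest RANKL library, replicate 4, was still above the highest control library. The means were 4.91 ± 1.43 and 11.2 ± 2.55 CPM (SD, n = 4 each), from 80 and 64 counts, and the fitted log2 fold change was 1.11 (SE 0.29, 95% interval 0.51 to 1.71). Its neighbour and paralog Cd55b had 3 counts in control and 9 in RANKL libraries, and adding them to Cd55 gave a log2 fold change of 1.25.

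Cd46 and Cd59a were near the limit of detection. Cd46, on chromosome 1 from 195036826 to 195092249 next to Cr1l, encodes a cofactor for factor I that in mice is best known from the testis. It had 10, 11, 14 and 3 counts in control and 0, 1, 6 and 4 counts in RANKL replicates 1 to 4. The groups overlapped, and the ratio of summed counts, 38 in control and 11 in RANKL libraries, was 0.803 with a 95% exact interval of 0.370 to 1.602. On the opposite strand, A330023F24Rik, Mir29b-2 and Mir29c together overlap 100% of the last 500 exonic bases of Cd46. A330023F24Rik had 114 counts in control and 58 in RANKL libraries. Counting was by strand, and whether reads of A330023F24Rik reached the count of Cd46 was not tested. Cd59a, on chromosome 2 from 104095801 to 104115354, encodes a lipid-anchored protein that blocks the membrane pore. It had 5 counts in control and 3 in RANKL libraries, spread over 5 of the 8 libraries, and its paralog Cd59b had 3 and 1. No difference in either gene was detectable at this depth.

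All 8 genes had at least 1 count. Cd46, Cfi, Cd59a and C4b did not pass the filter on low counts. C3, Cd55, Cr1l and Cfb passed it, C3 and Cd55 through the RANKL libraries, where they were higher. Of these 4, C3, Cd55 and Cr1l had every RANKL library above every control library, and Cfb had groups that overlapped. Over all 9971 genes tested, 24.6% had no overlap between the groups, 13.1% with the RANKL libraries higher and 11.5% with them lower. As the genes were picked with these values known, nothing is read from this count.

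The order of the 8 genes by level differed between the groups. The place of Cfb in it is uncertain, as most of its exonic bases are shared with Gm20547. In control organoids Cr1l led with 40.5 CPM, and its lowest library lay above the highest library of every other of the 8 genes. Cfb at 5.49 ± 1.81, Cd55 at 4.91 ± 1.43, Cfi at 3.90 ± 0.49 and Cd46 at 3.23 ± 1.61 CPM followed, each overlapping its neighbours in the order. C3 at 1.58 ± 0.90 CPM overlapped Cd46 but none of Cfb, Cd55 and Cfi. With RANKL, C3 led at 199 CPM, followed by Cr1l at 51.5 CPM and Cd55 at 11.2 CPM, with no overlap between C3 and Cr1l or between Cr1l and Cd55. Cfb at 6.48 ± 2.33 CPM overlapped both Cd55 and Cfi at 4.997 ± 0.355 CPM. Cd46 was at 1.504 ± 1.42 CPM and below every Cfi value.

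Taken over the 8 genes, the regulator Cr1l held most of the complement counts in control libraries and C3 held most of them in RANKL libraries. C3 made up 4.54%, 1.45%, 1.67% and 2.78% of the counts on the 8 genes in control replicates 1 to 4, with 95% exact intervals that together run from 0.0703% to 14.5%. It made up 74.3%, 71.6%, 70.8% and 72.6% in RANKL replicates 1 to 4, with intervals from 66.9% to 80.6%. Cr1l held 63.2% to 72.2% in control and 17.1% to 19.6% in RANKL libraries. The 5 regulators, Cfi, Cr1l, Cd55, Cd46 and Cd59a, summed to 50.2 to 56.8 CPM in control and 62.6 to 77.7 CPM in RANKL libraries. Per unit of these regulators' CPM, C3 stood at 0.0160 to 0.0537 in control and at 2.69 to 3.25 in RANKL libraries.

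**Figure D2:**
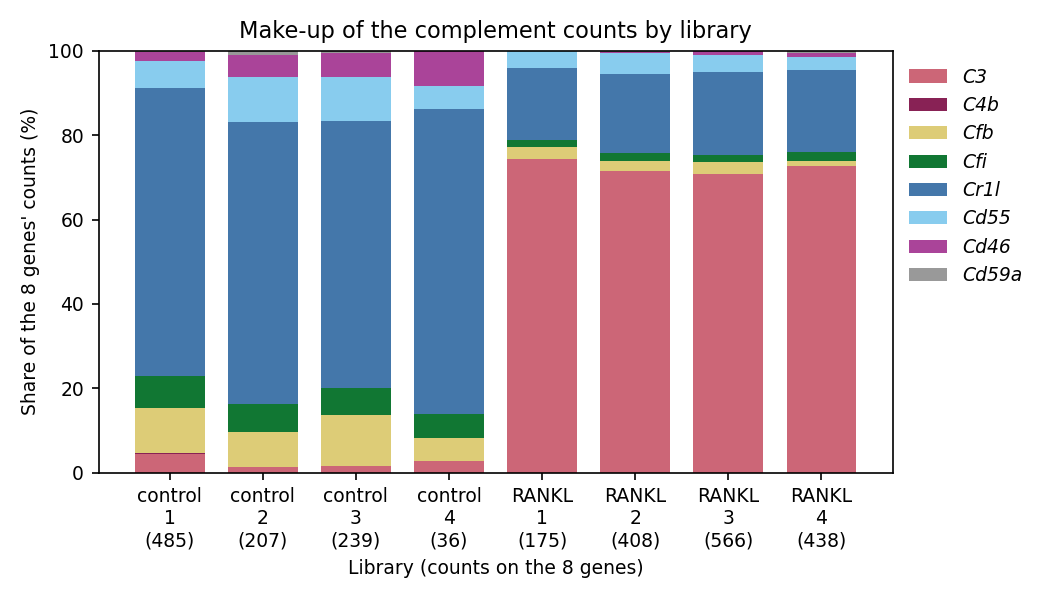
Share of the counts on the 8 complement genes taken by each gene (vertical axis, percent) in each library, with the number of counts behind each bar in brackets. C3 holds 1.45% to 4.54% in the 4 control libraries and 70.8% to 74.3% in the 4 RANKL libraries, and Cr1l is the largest share in each control library.

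Of 51 other genes of the complement system listed by role, 22 had 0 counts in all 8 libraries and 4 could be tested. Of all 54532 genes, 30696 had 0 counts in all 8 libraries and 9971 could be tested. Over all genes tested, 25.9% passed edgeR's test, 13.6% being higher and 12.4% lower with RANKL. Of the 4, Clu rose with RANKL and Cfhr2 fell, while Mbl2 and C1qbp did not pass the test. Clu passed the filter on low counts through the RANKL libraries and Cfhr2 through the control libraries, each the group where it was higher. Their calls are therefore given as a description. With no filter, edgeR's test gave adjusted p = 0.0046 for Clu and 0.067 for Cfhr2. Clu encodes clusterin, a secreted chaperone that also binds the terminal complex. It was at 3.18, 4.83, 4.31 and 15.5 CPM in control and at 11.3, 8.26, 8.34 and 15.4 CPM in RANKL replicates 1 to 4, so that control replicate 4 overlapped the RANKL libraries. Its log2 fold change was 1.22 (SE 0.35, adjusted p = 0.0089 under edgeR's quasi-likelihood model). The call was lost under DESeq2 (adjusted p = 0.066), without control replicate 1 (adjusted p = 0.051 from edgeR's test) and without RANKL replicate 4 (adjusted p = 0.12 from edgeR's test). Cfhr2, a gene of the factor H related family, was at 8.40, 6.44, 7.86 and 6.88 CPM in control and at 1.61, 6.19, 3.65 and 3.30 CPM in RANKL replicates 1 to 4. Each RANKL value was below the lowest control value, and the log2 fold change was -0.94 (SE 0.34, adjusted p = 0.038 from edgeR's test). That call was lost under DESeq2 (adjusted p = 0.14), and under edgeR without control replicate 1 (adjusted p = 0.10), control replicate 3 (0.053) or RANKL replicate 1 (0.093), 3 (0.12) or 4 (0.14).

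Mbl2, which encodes a mannose-binding lectin that starts the lectin route, had a log2 fold change of 0.66 (95% interval 0.12 to 1.21, adjusted p = 0.068 from edgeR's test). It passed without control replicate 4 (log2 fold change 0.76, adjusted p = 0.033 from edgeR's test) and under limma-voom (adjusted p = 0.041). C1qbp, a mitochondrial protein named for binding C1q, had 0.12 (95% interval -0.10 to 0.34, adjusted p = 0.44 from edgeR's test). C4bp, which encodes the soluble C4b-binding protein, was just under the filter and is named here after its values were seen. It held 48 counts in control and 53 in RANKL libraries, at 2.93, 2.15, 3.80 and 3.44 CPM in control and at 3.23, 8.26, 10.4 and 10.4 CPM in RANKL replicates 1 to 4. RANKL replicate 1, with 2 counts, overlapped the controls. With no filter on low counts, edgeR gave C4bp a log2 fold change of 1.51 (SE 0.37, adjusted p = 0.00074). C4bp also passed edgeR's test without control replicate 1, 2, 3 or 4 or RANKL replicate 1. In those fits it passed the filter only through RANKL replicates 2, 3 and 4, where it was high. As C4bp was picked with these values known, none of these passes is read as support.

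Since 30696 of all 54532 genes had 0 counts, nothing about the complement routes is read from the numbers of genes at 0 below. Of 17 genes for the recognition molecules and proteases of the classical and lectin routes, 7 had 0 counts. Apart from Mbl2 none of the 17 passed the filter, and C2, the partner of C4, had 20 counts in control and 5 in RANKL libraries. Of the alternative route, Cfd, the protease that activates factor B, was at 0 counts throughout, and Cfp, which encodes properdin, had 20 counts in control and 8 in RANKL libraries. Of 7 genes for C5 and the membrane pore, 4 had 0 counts, among them Hc, which encodes C5, and 0 could be tested. Of 10 receptors and binding proteins, 5 had 0 counts, and C3ar1, the receptor of the C3a fragment, had 1 count in all. Over a whole group, 0 counts allow up to 0.186 CPM in control and 0.516 CPM in RANKL libraries.

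**Figure D3:**
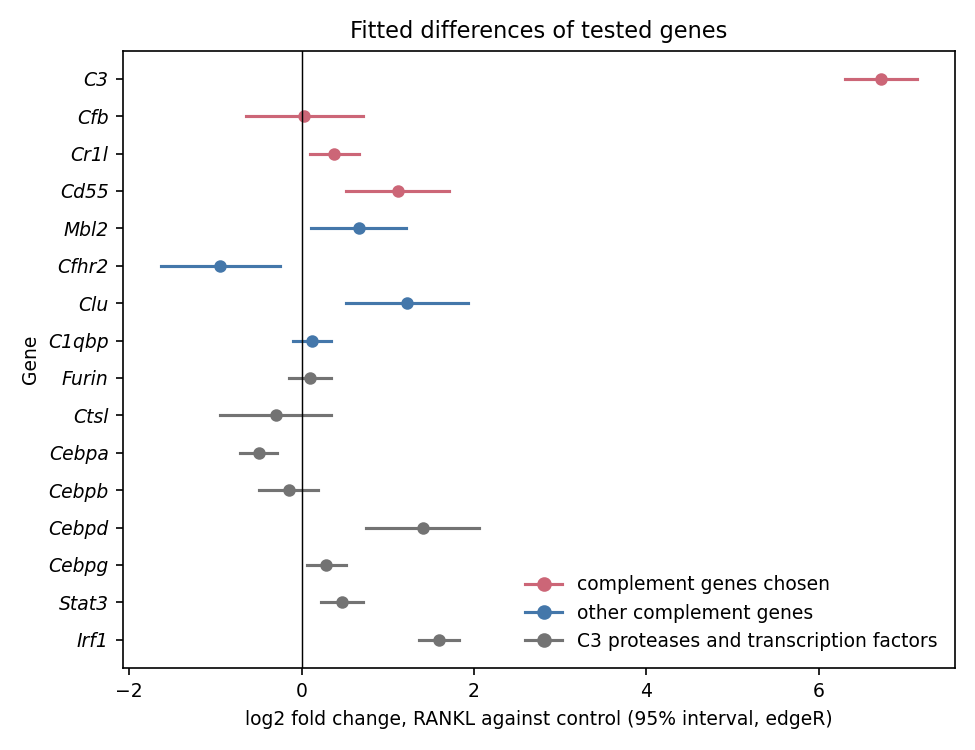
Fitted log2 fold change of RANKL against control (horizontal axis) with its 95% interval for every tested gene of the complement set (red) and of the other complement genes (blue), and for the C3 proteases and transcription factors named in the text (grey). C3 stands at 6.72, and the other 15 genes lie between -0.94 and 1.59.

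Genes tied to the making of C3 were listed as well. Furin, which encodes a protease that cuts C3 precursors in the secretory path, was at 212 ± 32.8 CPM without and 231 ± 35.4 CPM with RANKL, or 0.10 on the log2 scale (95% interval -0.14 to 0.34). Ctsl, which encodes a lysosomal protease able to cut C3 inside cells, had a log2 fold change of -0.30 (95% interval -0.94 to 0.34). Neither passed the test (adjusted p = 0.58 and 0.53 from edgeR's test). Of the transcription factor genes Irf1, Stat3, Cebpa, Cebpb, Cebpd and Cebpg, 3 rose and 1 fell. Over all genes tested, 13.6% were higher and 12.4% lower with RANKL. As the list was chosen with earlier results known, nothing is read from this count. Irf1, an interferon- and NF-κB-responsive factor, rose from 44.9 ± 1.48 CPM to 138 ± 7.60 CPM, or by 1.59 on the log2 scale (SE 0.11, adjusted p = 2.2e-12 from edgeR's test), with no overlap between groups. Cebpd had a log2 fold change of 1.40 (SE 0.32, adjusted p = 0.0013 from edgeR's test) at 4.59 ± 1.89 and 10.6 ± 2.69 CPM, with RANKL replicate 4 at 6.59 CPM below control replicate 4 at 6.88 CPM. Cebpd passed the filter on low counts through the RANKL libraries, where it was higher. Stat3 rose by a log2 fold change of 0.47 (SE 0.12, adjusted p = 0.0033), and Cebpa fell from 574 ± 90.1 to 412 ± 31.9 CPM (log2 fold change -0.50, SE 0.11, adjusted p = 0.00063 from edgeR's test). Cebpb and Cebpg did not pass. Cebpg was close (adjusted p = 0.055 from edgeR's test), with RANKL libraries at 117.7 to 143.7 CPM all above controls at 91.1 to 113.2 CPM. Whether any of these factors bears on C3 was not tested.

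The profile of C3 over the 8 libraries was set beside those of 9923 other tested genes with a mean of at least 5 CPM over the libraries. Likeness was taken as the root mean square difference of log2(CPM + 0.5) after centring each gene on its own mean, which weighs the size of the difference between groups most. The closest were H2-M2 (difference 0.41), Vcam1 (0.53), Icam1 (0.56), Stx11 (0.64) and Il4i1 (0.66). Each of them passed the filter on low counts through the RANKL libraries, where it was higher. H2-M2, a class I gene of the MHC, was at 0.764, 0.268, 0.253 and 0 CPM in control and at 85.6, 99.8, 97.5 and 95.6 CPM in RANKL replicates 1 to 4. Vcam1 and Icam1, which encode adhesion molecules for leukocytes, had 0 counts in the control libraries. With RANKL, Stx11 was at 50.3 ± 8.78 CPM and Il4i1 at 32.3 ± 5.32 CPM (SD, n = 4), so that C3, at 199 CPM, was the most abundant of these 6 genes in the RANKL libraries.

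The value for C3 was recomputed under 15 other settings. The log2 fold change stayed between 6.499 and 7.58, and with another scaling, tool, filter or covariate alone it lay between 6.67 and 6.82. At least 10 counts in every library could not be required for C3, since 3 control libraries held fewer.

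**Figure D4:**
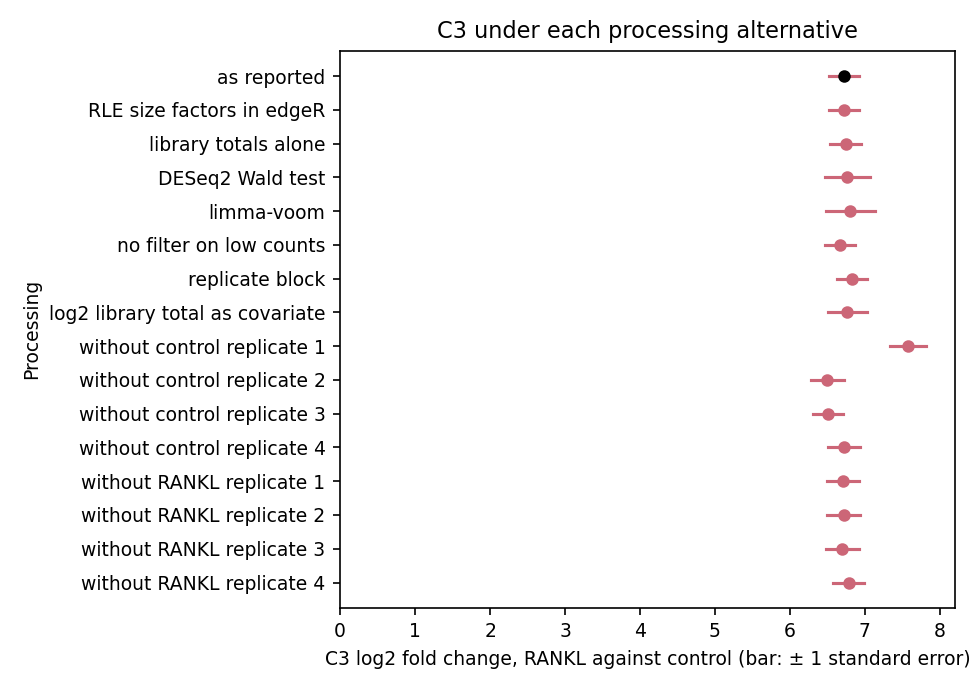
Log2 fold change of C3 between RANKL and control organoids (horizontal axis, from 0) with bars of 1 standard error for each processing alternative, the reported value in black. The 15 alternatives lie between 6.499 and 7.58, and the largest is the fit without control replicate 1.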

How the data were processed

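Counts per gene of 8 QuantSeq 3′ libraries (4 control, 4 RANKL) were used. The authors trimmed reads with BBDuk, removed ribosomal, mitochondrial and phiX reads with bowtie2, aligned to GRCm38 (mm10 in the submitters' processing notes) with STAR, and counted by strand with featureCounts on Ensembl genes. The deposited values are raw counts, not normalized, so depth sets their precision. Reads without molecular identifiers are not independent molecules, so intervals and floors (3 counts) cover counting error only.

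Of 54532 genes, 54495 matched GENCODE M21 (GRCm38), which gave names and coordinates. edgeR 4.0.16 in R 4.3.3 (TMM, filterByExpr, quasi-likelihood test, Benjamini-Hochberg over 9971 genes, threshold 0.05) was the main test. The SE is the size of the log2 fold change over the square root of F. The study's methods name DESeq2, used here (1.42.0) as an alternative with limma-voom (3.58.1), other scalings and filters, a replicate block, a depth covariate, added paralog counts and each library left out. The edgeR, DESeq2 and limma-voom steps were tested on simulated data. Promoters are RefSeq's (GRCm38.p6). Other steps ran in Python 3.11.15 with pandas 2.3.3.

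Genes named are the complement genes chosen, other complement genes past the threshold or tested, paralogs and overlapping loci, the C3 proteases and transcription factors listed (1 of them is not reported here), and the 5 profiles closest to C3. C4bp, and the genes named to show low or 0 counts, fall outside that rule and were named after their values were seen. The genes and lists were chosen with earlier results of these data known. Protein sequences and experiments other than these libraries were not analysed here.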

Additional observations from a re-analysis of the deposited data

Results flagged for a closer look

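Of 39 groups of 4 values checked, 3 held a value that stood apart from the other 3 by Dixon's test. A rate of 1 in 20 would be 1.95 of 39, but that rate does not hold for groups with several values of 0. C4b was at 0.1273 CPM in control replicate 1, from 1 count in the deepest library, and at 0 in the 3 others. Any single count beside 3 values of 0 is flagged, so nothing is read from this one. Clu was at 15.48 CPM in control replicate 4, the shallowest library, from 9 counts, with the next control library at 4.83 CPM. Stx11 was at 0.7603 CPM in control replicate 3, from 3 counts, with the next at 0.127 CPM. Whether low counts account for the values of Clu and Stx11 was not tested.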

How the results depend on the processing

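The log2 fold change of C3 ran from 6.499 to 7.58 with 1 library left out, the highest without control replicate 1. Those of Cd55 (0.90 to 1.29) and Cr1l (0.31 to 0.44) kept their sign under each of 16 alternatives, and that of Cfb (-0.21 to 0.30) did not. With no filter, the median over all genes moved to -0.11. As reported, edgeR called 1 other complement gene higher and 1 lower. The number higher was 2 with limma-voom and 2 with no filter, and 0 under DESeq2, the replicate block, the depth covariate and at least 10 counts in every library. The number lower was 0 under DESeq2, no filter, the replicate block, the covariate and at least 10 counts. At an unadjusted p under 0.05, DESeq2 and edgeR with the block each gave 2 higher and 1 lower, the covariate and the 10-count filter 0 and 0, and the latter tested only C1qbp. With a library left out, 0 to 3 were higher and 0 to 1 lower. The cause was not tested, beyond the fewer genes tested under the 10-count filter. Clu had adjusted p = 0.061 under the block and 0.41 with the covariate, and Cfhr2 0.093 and 0.32 (edgeR). Cebpd (0.097) and Stat3 (0.058) lost their call with the covariate only. Over all genes, 1827 to 2610 passed, against 2587 as reported. The replicate numbers are not stated to pair the samples: same-numbered deviations correlated at -0.03 to 0.10, 2 of 4 control libraries matched their own number best, and the block gave a log2 fold change of 6.82 for C3. Depth limits Cfi, Cd46, Cd59a and C4b most.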
